A study of Mus musculus with 5 samples.

Results

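The cytosolic ribosomal protein genes encode the protein part of the 60S and 40S subunits of the ribosome. They were taken from the table of read counts by their symbols: names that begin with Rpl or Rps followed by a digit or a p, without the Rps6k kinases, without symbols that hold "-ps" (processed copies), and with at least 50 reads summed over the 5 libraries. Of 21983 genes in the table, 93 symbols matched the name, 8 of these were copies and 6 had too few reads, which left 79 genes. They comprised 41 genes of the 60S subunit, 3 of its stalk, 29 of the 40S subunit, 4 expressed paralogs or retrogenes (Rpl22l1, Rpl39l, Rps27l, Rps27rt) and 2 genes that share the name without encoding a core subunit protein (Rpl7l1, Rps19bp1). The rule does not take core genes with other symbols, such as Rpsa, Rack1 and Fau. Just inside the minimum stood Rpl39l with 61 reads, Rps29 with 65 and Rps27 with 92, and just outside stood Rpl38 with 40, Rps10 with 30 and Rpl36al with 24. The paralogs Rpl3l and Rpl10l had 4 and 0 reads. All 79 passed the filter on low counts that left 12543 genes to test.

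The libraries come from primary microglia, which are the brain's own macrophages, of mice. The labelled knockout genotype is Cx3cr1CreERT2 with Ythdf2fl/fl, in which a tamoxifen-inducible Cre recombinase is expressed from the Cx3cr1 locus and both Ythdf2 alleles carry loxP sites. It has 2 libraries, and the control genotype, Ythdf2fl/fl without the Cre, has 3, so both groups share the floxed alleles. Ages, tamoxifen dosing and the number of animals per library are not stated in the labels at hand. Ythdf2 encodes a cytoplasmic protein that binds N6-methyladenosine in mRNA and promotes its decay, and the comparison asks which processes differ in microglia when it is lost.

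A ribosome needs 1 copy of almost every core protein, so its genes are among the most uniformly expressed in a cell. Their mRNAs begin with a stretch of pyrimidines, the terminal oligopyrimidine (TOP) motif, through which mTOR, its target LARP1 and nutrients set how strongly they are translated. The stalk proteins recruit translation factors. The genome also holds many processed copies of these short, abundant mRNAs, some of which are themselves annotated and counted.

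Libraries held 13947500 to 19577217 counts. Every pair of them differed beyond counting noise: chi-square per degree of freedom over genes ranged from 53.4 to 273. Ythdf2 reached 103 and 127 CPM (counts scaled to library size with TMM factors) with the knockout label and 57.0, 69.2 and 68.7 CPM in the controls. The targeted gene was thus not lower under the knockout label, so the group is called "labelled knockout" throughout and every direction rests on that label. Below, values set out with "versus" give the libraries labelled knockout 1 and 2 first and controls 1, 2 and 3 after. A gene-level count takes reads from all exons and does not check the deletion. Of 10 microglia markers all were detected, with summed levels of 4019 and 6730 CPM under the knockout label and 7651 to 8030 CPM in the controls. Cx3cr1, a defining marker, had 337 and 97.6 CPM there and 681, 992 and 680 CPM in the controls. Of the 10 markers, 3 had both labelled knockout values under every control and 2 had both above. Markers of other brain cells were present too: 7 oligodendrocyte genes summed to 12467 and 4595 CPM versus 10576, 9524 and 1264 CPM. The 6 choroid plexus genes summed to 157 and 220 CPM versus 7.47 to 26.5 CPM, all 6 with both libraries labelled knockout above every control. The 7 monocyte genes summed to 153 and 219 CPM versus 45.7 to 94.6 CPM. Haemoglobin genes, Cd3e and Cldn5 were at 0 in all 5 libraries. Of the 5 endothelial genes only Cldn5 was at 0 throughout. These 5 genes summed to 81.2 and 15.02 CPM versus 81.1, 115 and 42.9 CPM. The part that other cell types play in the values below was not tested, and in bulk RNA fewer cells of a type and less RNA per cell cannot be told apart.

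Rps27 and its relatives show how close the copies lie, and why their levels are read together. The first 120 coding bases follow for Rps27 (gene at chr3:90212522-90213651, minus strand), its retrogene Rps27rt (chr9:114982366-114982739, minus strand) and its paralog Rps27l (chr9:66946086-66949516, plus strand), from GENCODE M21 on GRCm38. Capitals mark the bases that differ from Rps27.
Rps27: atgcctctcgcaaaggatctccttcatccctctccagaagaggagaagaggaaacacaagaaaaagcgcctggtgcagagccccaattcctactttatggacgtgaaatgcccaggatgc
Rps27rt: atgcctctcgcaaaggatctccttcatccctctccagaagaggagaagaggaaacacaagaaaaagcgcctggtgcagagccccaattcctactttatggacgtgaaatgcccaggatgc
Rps27l: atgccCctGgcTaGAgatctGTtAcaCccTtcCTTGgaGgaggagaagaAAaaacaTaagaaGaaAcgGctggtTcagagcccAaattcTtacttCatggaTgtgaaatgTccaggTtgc
Over the whole coding sequence of 252 bases, Rps27 and Rps27rt differed at 0 positions and Rps27 and Rps27l at 60. Rps27 was listed with 92 reads and Rps27rt with 4373.

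Runs of pyrimidines near the annotated start were searched for, upstream of it as well as downstream, so a match need not be a TOP motif. In RefSeq's table of promoters (GRCm38.p6), 60 of the 79 genes were matched. A run of at least 8 C or T bases on the gene's own strand, touching the 15 bases on either side of the annotated start, was found in 29 of these 60 (48.3%) and in 5416 of all 27025 genes of that table (20.04%). Windows of 30 bases around the start are shown for 4 abundant genes of this kind, with the run in capitals: Rpl4 (chr9:64173372-64173401, plus strand), Rps9 (chr7:3704026-3704055, plus strand), Rpl18 (chr7:45718056-45718085, plus strand) and Rps18 (chr17:33955651-33955680, minus strand).
Rpl4: TTCCTTTTCCTgtgggagcagccgggtaga
Rps9: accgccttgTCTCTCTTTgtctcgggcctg
Rpl18: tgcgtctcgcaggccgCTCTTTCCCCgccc
Rps18: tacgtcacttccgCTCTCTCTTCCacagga
The run in Rpl4 reaches beyond the window and lies wholly before the annotated start at the window's centre. Such a match describes letters only.

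As a family, the 79 genes took 0.611% and 1.14% of all counts in the libraries labelled knockout 1 and 2, and 0.987%, 0.718% and 0.976% in controls 1, 2 and 3. The mean share was 0.874% ± 0.371 (SD, n = 2) with the knockout label and 0.894% ± 0.152 (SD, n = 3) in the controls. The 2 libraries labelled knockout held the lowest and the highest value of the 5, with every control between them. The difference of -0.0203 percentage points was smaller than the spread within either group, and it turned to 0.242 without the library labelled knockout 1 and to -0.283 without the library labelled knockout 2. With 2 libraries against 3, no exact permutation test of a single value can pass 0.05.

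No ribosomal protein gene passed the test between the genotypes. In edgeR's quasi-likelihood test with Benjamini-Hochberg adjustment over all 12543 genes, 0 of the 79 and 0% of all genes were called, and the smallest adjusted p among the 79 was 0.503, for Rpl15. DESeq2 called 0 of the 79 against 1.67% of all genes. At an unadjusted edgeR p under 0.05 there were 2 of the 79, both lower, against 6.68% of all genes in either direction (2.69% lower and 3.99% higher). For 0 of the 79 (9.85% of all genes) the labelled knockout values both exceeded every control, and for 4 (10.4% of all genes) both were under every control, so neither share exceeded the background. The median log2 fold change was -0.11, beside 0.01 for all genes tested, with 22 genes above 0 and 57 below. It moved to 0.33 without the library labelled knockout 1 and to -0.84 without the library labelled knockout 2. The fold changes of the family spread less than those of all genes, with an SD of 0.34 against 0.77 on the log2 scale. Mitochondrial ribosomal protein genes (0.26), initiation factors (0.21) and ribosome biogenesis factors (0.28) spread less still, and regulators of ribosomal protein synthesis more (0.62). A narrow spread was thus not particular to the family, and the sets were not matched for level. By subunit, the median was -0.14 for the 44 genes of the 60S subunit with its stalk and -0.06 for the 29 genes of the 40S subunit.

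**Figure D1:**
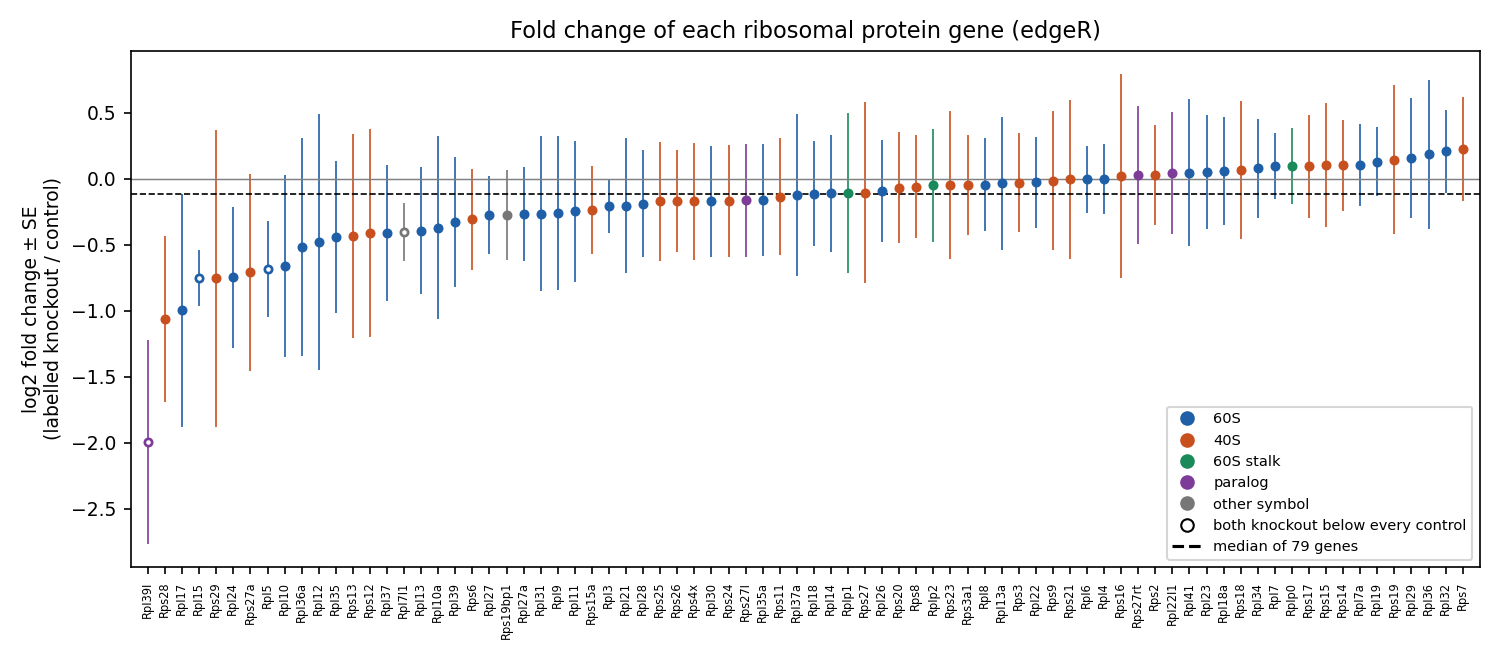
Log2 fold change (vertical axis, labelled knockout over control, edgeR) of 78 of the 79 genes, sorted along the horizontal axis and coloured by role. Bars are ± 1 SE; open circles are the 4 genes with both libraries labelled knockout below every control, and most bars cross 0.

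The 4 genes with groups that did not overlap were Rpl15, Rpl5, Rpl39l and Rpl7l1, all lower. Rpl15 encodes a core protein of the 60S subunit. Its values were 22.2 and 22.6 CPM under the knockout label and 36.4, 35.7 and 41.6 CPM in controls 1 to 3. The means of 22.4 ± 0.281 (SD, n = 2) and 37.9 ± 3.25 (SD, n = 3) correspond to a log2 fold change of -0.76 (SE 0.21, unadjusted p = 0.012 and adjusted p = 0.503 in edgeR). It kept within -0.80 to -0.68 with each library left out in turn, and was -0.58 when scaled to the summed ribosomal protein genes and -0.49 after a correction for transcript length. The 2 libraries labelled knockout lay at almost the same level in Rpl15, while most of the family was clearly lower in the first of them. Its exons overlap those of Nkiras1 on the other strand, and the strand setting of the counting is not stated in the sources at hand. Of Rpl15's stretches of 100 transcript bases, 73.4% also occur in transcripts of other annotated genes. How reads that map to several places were counted is not stated there either.

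Rpl5, which binds 5S rRNA together with Rpl11 and can hold back the p53 regulator Mdm2, was lower in the same way at a low level. It had 3.33 and 3.24 CPM versus 5.28, 4.94 and 5.65 CPM, from 56 to 84 reads per library. The log2 fold change was -0.68 (SE 0.36, adjusted p = 0.867 in edgeR's quasi-likelihood test). Its partner Rpl11 did not follow. Rpl11 stood at 3.51 and 9.94 CPM versus 9.42, 5.70 and 8.92 CPM, so that the groups overlapped. Exons of Rpl5 overlap those of Fam69a on the other strand and the small nucleolar RNA gene Snord21 on its own.

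Rpl39l, a paralog of Rpl39 known from the testis, was near the limit of detection. It had 4 and 6 reads under the knockout label and 14, 12 and 25 in the controls, or 0.238 and 0.324 CPM versus 0.880, 0.760 and 1.86 CPM. Its log2 fold change of -1.99 (SE 0.77) was the lowest of the family, with an unadjusted p of 0.042 and an adjusted p of 0.707 in edgeR. Rpl39 itself, at 12.2 and 35.4 CPM versus 32.2, 21.5 and 36.2 CPM, had overlapping groups. The coding sequences of the 2 genes differ at 23 of 153 bases. Rpl7l1, a nucleolar relative of Rpl7, was at 65.9 and 77.2 CPM versus 84.9, 88.7 and 110 CPM. This was a log2 fold change of -0.40 (SE 0.22). Rpl7 stood at 260 and 390 CPM versus 303, 293 and 319 CPM.

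Among the other low fold changes, those of Rpl12, Rpl10 and Rpl10a rested mainly on the library labelled knockout 1. Rpl12, whose protein lies at the base of the stalk, was at 1.84 CPM there, at 19.0 CPM in the library labelled knockout 2 and at 19.7, 5.70 and 18.4 CPM in the controls. Rpl10, which completes the 60S subunit late in its assembly, was at 4.28 and 15.9 CPM versus 17.8, 7.73 and 22.7 CPM. Rpl10a was at 9.39 and 46.2 CPM versus 51.0, 22.2 and 34.8 CPM. In each of these the first library was the lowest of the 5 and the second lay within the range of the controls. The log2 fold changes were -0.48 for Rpl12, -0.66 for Rpl10 and -0.37 for Rpl10a. Without the library labelled knockout 1 they were 0.35, -0.04 and 0.33. Rpl27 and Rps19bp1, the last of the 8 lowest among genes of at least 10 CPM, both had -0.28.

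Among genes with a mean of at least 10 CPM, the highest fold changes were smaller still and were those of Rpl32 (0.21), Rpl36 (0.18), Rpl29 (0.16), Rps19 (0.14), Rpl19 (0.13), Rpl7a and Rps14 (both 0.10). Rpl32 stood at 190 and 319 CPM versus 226, 173 and 263 CPM. Rps19, a 40S protein whose human gene is mutated in Diamond-Blackfan anaemia, was at 40.7 and 119 CPM versus 82.0, 37.7 and 96.5 CPM. The groups overlapped in each of these 7, and without the library labelled knockout 2 all 7 log2 fold changes fell below 0, to between -0.97 (Rpl36) and -0.22 (Rpl32). Rps7, with fewer reads, had the highest value of the family, 0.22 (SE 0.39), and its highest library was labelled knockout 1, at 9.93 and 6.75 CPM versus 6.60, 5.45 and 9.44 CPM.

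The values differed more between the libraries of 1 genotype than between the genotypes, and most genes did so in the same order. The library labelled knockout 1 was the lowest of the 5 for 70 of the 79 genes (88.6%), as it was for 33.1% of all genes tested. The library labelled knockout 2 was the highest for 47 (59.5%, 21.1% of all genes), and both held for 45 (57.0%, 10.1% of all genes). Level in the first was below that in the second for 77 genes, the exceptions being Rps7 and Rpl5. The median difference between these 2 libraries of 1 genotype was -1.23 on the log2 scale, beside -0.03 for all genes. Control 2 was the lowest of the controls for 76 genes (96.2%, 35.7% of all genes). As medians of log2 CPM after subtraction of each gene's mean, the family stood at -0.74 and 0.48 under the knockout label and at 0.26, -0.30 and 0.31 in the controls.

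**Figure D2:**
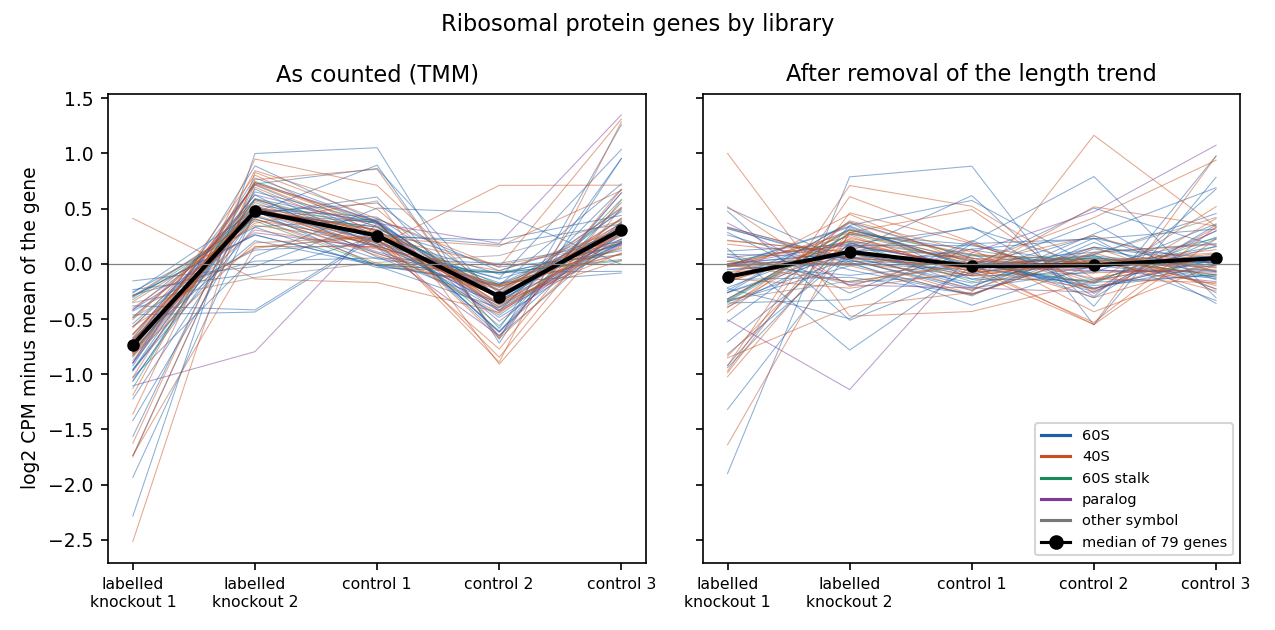
Log2 CPM of each of the 79 genes (thin lines, coloured by role) minus the mean of the gene over the 5 libraries, as counted (left) and after the trend on transcript length was removed from each library (right). The black median runs from -0.74 to 0.48 between the 2 libraries labelled knockout on the left and from -0.12 to 0.11 on the right.

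The most abundant members show that order in full. Rplp0, the scaffold of the stalk, had 592 and 969 CPM versus 735, 702 and 755 CPM. Rpl4 had 561 and 823 CPM versus 682, 650 and 746 CPM, and its group means of 692 ± 185 (SD, n = 2) and 693 ± 48.5 (SD, n = 3) were nearly equal. Both genes had their lowest and highest values in the 2 libraries labelled knockout. Rps3, which lines the entry of the mRNA channel and also has a role in DNA repair, was at 295 and 641 CPM versus 527, 399 and 507 CPM. Rps9 was at 174 and 591 CPM versus 446, 289 and 424 CPM. Rpl8 was at 284 and 564 CPM versus 471, 362 and 481 CPM. In all of these control 2 was the lowest control. Rps14 was at 223 and 457 CPM versus 338, 275 and 338 CPM. The acidic stalk proteins gave 136 and 500 CPM versus 382, 202 and 447 CPM for Rplp1, and 39.2 and 104 CPM versus 85.7, 61.0 and 76.5 CPM for Rplp2. None of the 3 stalk genes passed the test: log2 fold changes were 0.10 for Rplp0, -0.11 for Rplp1 and -0.05 for Rplp2, each with an SE of at least 0.29.

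The groups also overlapped in members known for more than their place in the ribosome. Rpl22, which also binds other RNAs and has a part in lymphocyte development, was at 92.1 and 181 CPM versus 143, 111 and 163 CPM. Its paralog Rpl22l1 was at 11.3 and 28.7 CPM versus 23.6, 13.7 and 20.95 CPM. Rps26 was at 63.2 and 135 CPM versus 117, 82.5 and 135 CPM, Rps24 at 113 and 258 CPM versus 200, 156 and 270 CPM, and Rps20 at 64.3 and 166 CPM versus 126, 98.4 and 138 CPM. Rps6, the substrate of the S6 kinases, was counted at 3.92 and 6.54 CPM versus 6.97, 5.83 and 6.69 CPM. Rpl13a, which takes part in a translational brake on inflammatory mRNAs in macrophages, was at 2.68 and 7.13 CPM versus 5.40, 4.31 and 5.42 CPM. In each of these 7 genes the library labelled knockout 1 was the lowest of the 5, control 2 was the lowest control, and the groups overlapped.

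The widest ranges over the 5 libraries belonged to Rpl12 and Rpl39l, given above, and to 4 genes with few reads. Rps29 had 0 and 21 reads under the knockout label and 13, 9 and 22 in the controls. Rpl17 was at 0.832 and 4.92 CPM versus 6.66, 2.15 and 8.62 CPM, Rps12 at 2.32 and 12.6 CPM versus 13.5, 4.62 and 11.9 CPM, and Rpl36a at 0.416 and 2.75 CPM versus 1.88, 1.52 and 3.57 CPM. All 4 had their lowest value in the library labelled knockout 1. Rps28 and Rpl24 were, with Rpl17, Rpl15, Rps29 and Rpl39l, the farthest from the median fold change of the family. Rps28 was at 1.25 and 4.97 CPM versus 4.96, 7.35 and 7.36 CPM, with control 1 just below the library labelled knockout 2. Rpl24 was at 1.07 and 2.43 CPM versus 3.33, 3.23 and 2.30 CPM.

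The genes of the 2 subunits moved alike between libraries, while the ratio of their summed levels differed. The median log2 difference between the libraries labelled knockout 1 and 2 was -1.27 for the 60S subunit with its stalk and -1.20 for the 40S subunit. Summed CPM of all members named Rpl over that of all named Rps was 1.43 and 1.20 under the knockout label and 1.21, 1.34 and 1.22 in the controls. With core proteins only it was 1.44 and 1.21 versus 1.22, 1.34 and 1.23. The ratio was thus highest in the 2 libraries in which the family was lowest. The group means of 1.31 and 1.26 differed by 0.0542, which was less than the SD of 0.0714 between the controls. Without the 5 most abundant members the ratio was 1.03 and 0.988 against 1.01, 1.01 and 0.990.

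Transcript length moved with these differences. The family's annotated transcripts had a median of 761 bases, against 2795.5 bases for all genes tested. Among other genes with a mean of at least 10 CPM, the log2 difference between the libraries labelled knockout 1 and 2 had a median of -1.41 for transcripts up to 500 bases (33 genes), -1.10 from 500 to 750 (161 genes), -0.86 from 750 to 1000 (282 genes), -0.62 from 1000 to 1500 (798 genes), 0.02 from 2500 to 5000 (3719 genes) and 0.44 beyond (1511 genes). Ribosomal protein genes in the 4 shortest classes had medians of -1.42 (10 genes), -1.25 (17), -1.12 (15) and -0.97 (8). The longer classes held few of them, with medians of -0.83 (2 genes, 1500 to 2500 bases), -0.80 (2 genes, 2500 to 5000) and -0.99 (1 gene, beyond), where other genes had -0.31, 0.02 and 0.44. Ribosomal protein genes up to 500 bases lay at the level of other genes of that length. From 500 bases on they lay below other genes of their class, furthest beyond 5000 bases, a difference that was not tested. Length is that of a single annotated transcript per gene, chosen from the annotation and not from these reads. The transcripts of Rps15a and Rps20 had 5130 and 3706 bases, of which 390 and 357 were coding. Whether these long forms were the ones present was not tested, and the same lengths entered the correction and the levels per kilobase below. After each library's trend on length was removed, the family's medians were -0.12 and 0.11 under the knockout label and -0.02, -0.01 and 0.05 in the controls, and the difference between the 2 libraries labelled knockout shrank from -1.23 to -0.20. The median log2 fold change between genotypes was then 0.01. The share of mitochondrially encoded transcripts was 2.20% and 1.60% under the knockout label and 1.46%, 1.95% and 1.16% in the controls, so the 2 libraries with the lowest family level had the highest such share. The part of RNA quality in the order of libraries was not tested.

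**Figure D3:**
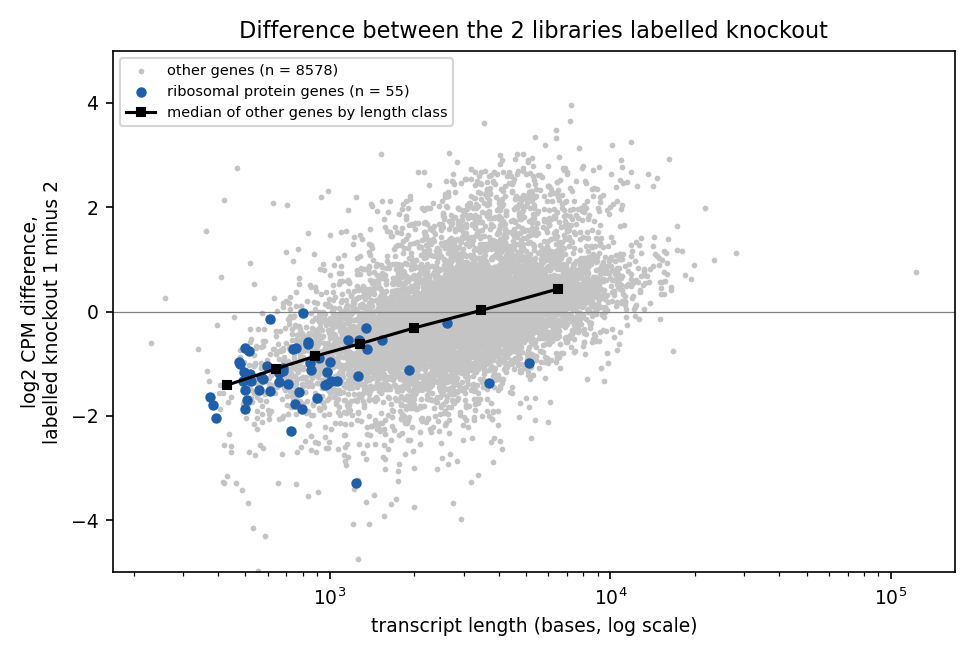
Log2 CPM in the library labelled knockout 1 minus that in the library labelled knockout 2 (vertical axis) against transcript length in bases (horizontal log axis) for genes with a mean of at least 10 CPM; 4 of the 8578 other genes lie beyond the vertical axis. Most of the 55 ribosomal protein genes (blue) lie at the short end, where the medians of other genes (black squares) fall from 0.44 in the longest class to -1.41 in the shortest.

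The same order appeared in core genes that the name rule misses. Rpsa, a 40S protein also known as the laminin receptor, was at 280 and 476 CPM versus 408, 290 and 378 CPM. Rack1, the scaffold on the 40S head, was at 453 and 788 CPM versus 624, 509 and 710 CPM. Fau, which encodes a 40S protein fused to a relative of ubiquitin, was counted at 3.39 and 8.91 CPM versus 6.72, 5.57 and 10.3 CPM. The library labelled knockout 1 was the lowest of the 5 for each of these 3 genes. Among 75 mitochondrial ribosomal protein genes, which serve the separate ribosome of that organelle and have a median transcript of 1280 bases, it was the lowest for 47 (62.7%), and the 2 libraries labelled knockout differed by a median of -0.66. Their median log2 fold change between genotypes was -0.08.

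Levels within the family were far apart, although the ribosome holds its proteins in nearly equal numbers. Per kilobase of transcript, the mean level of the 73 core genes spanned 313.5-fold. Rplp1 (668 CPM per kilobase), Rplp0 (553), Rps14 (546), Rps9 (512), Rpl8 (508), Rpl32 (453), Rpl4 (450) and Rpl41 (441) led, and Rps29 (2.13), Rpl5 (2.19) and Rps16 (2.29) were at the other end. Of all 79 genes, 24 had a mean under 10 CPM and 28 a mean of at least 100 CPM. Low levels went with sequence that other annotated genes hold. In 68 of the 73, some stretch of 100 transcript bases also occurs in a transcript of another annotated gene that does not overlap it, and in 28 at least 50% of such stretches do. The 5 genes with none, among them Rps3, Rpl22 and Rpl32, had a median of 292 CPM per kilobase, and the 12 genes with at least 75% had a median of 7.62. Between these ends the medians were 99.9 (up to 25%, 19 genes), 85.9 (25% to 50%, 21 genes) and 92.5 (50% to 75%, 16 genes). Across the 73 genes Spearman's rho was -0.45 for stretches of 100 bases and -0.24 for stretches of 50 bases, a description over genes of the same 5 libraries. For the log2 fold change between genotypes, rho with shared stretches of 100 bases was -0.38. Its median was -0.01 for the 5 genes with none and -0.40 for the 12 with at least 75%. In the 3 classes between, in the order above, it was -0.05, -0.17 and 0.01. The part of shared sequence in the fold changes was not tested. Exceptions lay on both sides: Rpl13a with 1.05% of its stretches shared was at 4.76 CPM per kilobase, and Rpl3 with 79.4% at 67.2. How the authors' counting treated reads that map to several places is not stated in the sources at hand, so the level of a gene with annotated copies is uncertain.

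**Figure D4:**
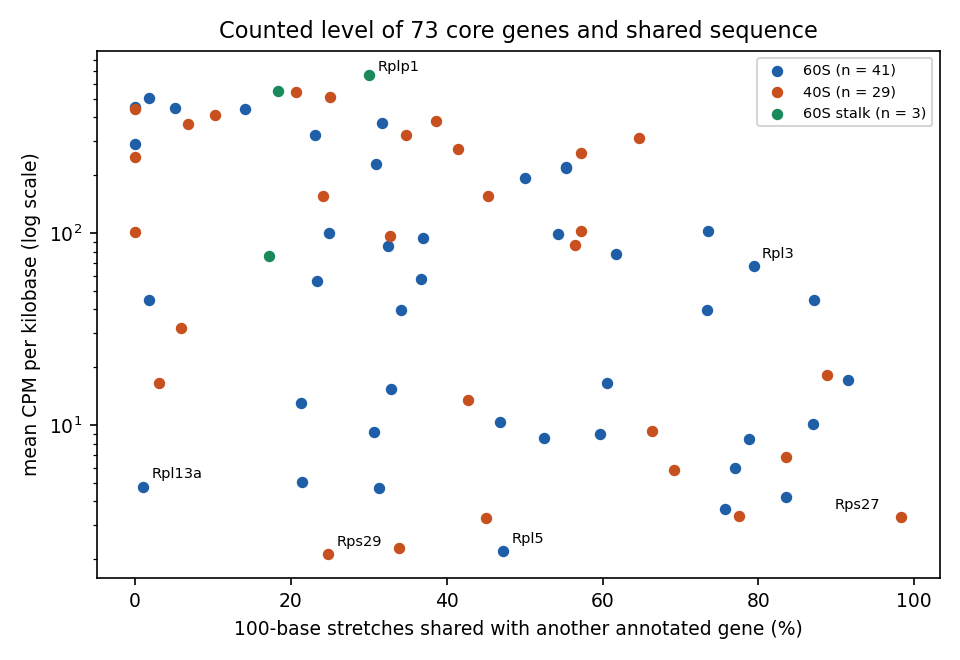
Mean CPM per kilobase of transcript over the 5 libraries (vertical log axis) against the percentage of a gene's 100-base stretches that another annotated gene also holds (horizontal axis), for the 73 core genes coloured by subunit. Most genes beyond 75% lie under 20 CPM per kilobase, while low genes such as Rpl13a and Rps29 also occur at small percentages.

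Reads were divided unevenly between genes and their counted copies. In 3 further genes beside Rps27 the copy had more. Rps12 had 721 reads and Rps12-ps3 had 8659, with 0 differences over 396 coding bases. Rpl9 had 598 and Rpl9-ps6 had 1624, with 1 difference over 576 coding bases. Rpl36a had 160 and Rpl36a-ps1 had 341, with 7 differences over 318. Rpl10 was the other way round, with 1077 reads against 835 for Rpl10-ps3 and 0 differences over 642 coding bases, as was Rpl13a with 404 reads against 188 for Rpl13a-ps1. The remaining copies, Rpl27-ps3, Rpl9-ps1 and Rpl36-ps4, had at most 10 reads in any library. When each of these genes and Rps27 was summed with its copy, the library labelled knockout 1 was the lowest of the 5 and control 2 the lowest control in every sum. Rps27 and Rps27rt together had 27.2 and 83.9 CPM versus 66.5, 35.0 and 62.5 CPM, and Rps12 with Rps12-ps3 had 62.4 and 157 CPM versus 134, 88.4 and 140 CPM. Rps27l, which shares no 100-base stretch with another gene, was at 29.8 and 48.3 CPM versus 44.0, 25.3 and 62.1 CPM. In Rps27l control 2, not the library labelled knockout 1, was the lowest of the 5.

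In 5 lists of genes that build, use or regulate ribosomes, the library labelled knockout 1 was the lowest of the 5 for 26.9% to 43.8% of the genes, beside 33.1% of all genes tested and 88.6% of the ribosomal protein genes. Of 51 ribosome biogenesis and nucleolar factors tested, which process rRNA and assemble subunits in the nucleolus, edgeR called 0 at an adjusted p under 0.05. At an unadjusted p under 0.05, 8 were lower and 0 higher, beside 2.69% and 3.99% of all genes. Their median log2 fold change was -0.33, with 43 below 0, and both libraries labelled knockout lay below every control for 20 of 51, beside 10.4% of all genes. Nop56, a core protein of box C/D small nucleolar particles, was at 34.4 and 33.7 CPM versus 62.8, 52.6 and 60.1 CPM. Its log2 fold change was -0.78 (SE 0.20, edgeR adjusted p = 0.442). Nop2, an rRNA methyltransferase, was at 33.7 and 35.2 CPM versus 53.6, 58.6 and 59.2 CPM. Its log2 fold change was -0.73 (SE 0.19, edgeR adjusted p = 0.468). In both genes the 2 libraries labelled knockout were close to each other and under all controls. Utp4 was at 19.0 and 21.6 CPM versus 32.5, 28.6 and 38.0 CPM, and Tcof1, the gene of Treacher Collins syndrome, at 95.5 and 90.4 CPM versus 127, 129 and 159 CPM. The library labelled knockout 1 was the lowest of the 5 for 16 of the 51 genes (31.4%). The list's median was -0.33 after the correction for length too, and between -0.47 and -0.25 with each library left out. When libraries were scaled to the summed ribosomal protein genes, which moved the median of all genes from 0.01 to 0.16, it was -0.13 with 21 of 51 above 0.

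Among 16 tested chaperones and export factors of ribosomal proteins, 14 had log2 fold changes below 0 with a median of -0.35, and 5 lay below every control (10.4% of all genes). Eif6, which keeps new 60S subunits from joining too early, was at 63.9 and 76.2 CPM versus 108, 112 and 90.6 CPM. Ltv1, an export adaptor of the 40S subunit, was at 17.1 and 18.6 CPM versus 28.3, 24.3 and 28.4 CPM. For 26 initiation factors the median was -0.29, with 21 below 0 and 10 below every control (10.4% of all genes). It was -0.16 without the library labelled knockout 2 and -0.08, with 16 below 0, when libraries were scaled to the summed ribosomal protein genes. Eif2s1 was at 65.7 and 53.5 CPM versus 75.01, 78.6 and 104 CPM. In edgeR 0 genes of these lists passed the adjusted threshold, and the unadjusted p was under 0.05 for 2 of the chaperones and 0 of the initiation factors.

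The 21 genes listed as other TOP mRNAs encode translation factors and partners, and whether each carries the motif was not checked. Their median log2 fold change was -0.01. It was 0.15 without the library labelled knockout 1, -0.20 without the library labelled knockout 2 and 0.14 when scaled to the summed ribosomal protein genes. Eef2, the translocation factor, stood at 4302 and 3747 CPM versus 2566, 3598 and 2830 CPM, and Eef1e1 at 10.6 and 8.59 CPM versus 18.9, 15.8 and 18.3 CPM. The library labelled knockout 1 was the lowest for 9 of the 21. Of 21 tested regulators, Deptor, an inhibitory partner of mTOR, differed most. Deptor was at 18.3 and 21.2 CPM versus 3.83, 4.31 and 4.23 CPM, with both libraries labelled knockout above every control. Its log2 fold change was 2.26 (SE 0.28), with an adjusted p of 0.231 in edgeR, and it was the 1 gene of the list called by DESeq2. Eif4ebp2, a repressor of cap-dependent translation, was at 258 and 230 CPM versus 134, 191 and 142 CPM, and Rheb, which activates mTOR, at 39.7 and 58.8 CPM versus 75.4, 66.2 and 88.2 CPM.

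**Figure D5:**
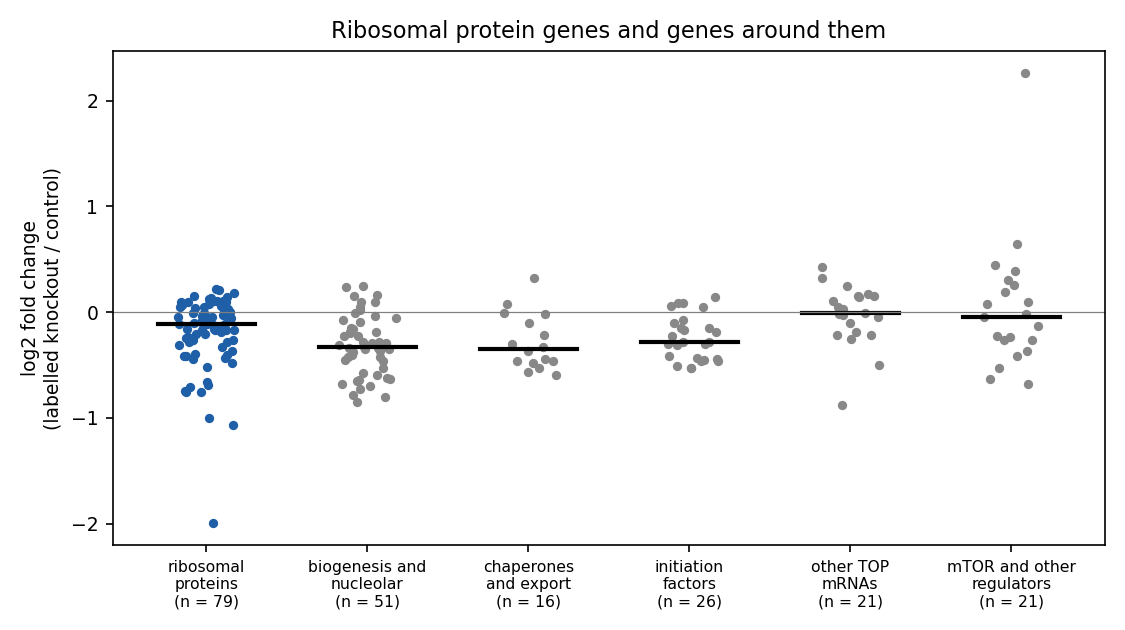
Log2 fold change (vertical axis, labelled knockout over control, edgeR) of single genes in the ribosomal protein family (blue) and in 5 lists of genes around it (grey), with the number of genes under each name and the median as a black line. Medians are -0.11 for the family, -0.33 for biogenesis factors and -0.01 for other TOP mRNAs; the point at 2.26 is Deptor.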

How the data were processed

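RNA-seq of 5 microglia libraries was analysed. The authors deposited whole-number counts per gene symbol; per the submitters' processing notes, FastQC, STAR, HTSeq and mm10 were used. The sources used here state no versions, annotation, strand setting or handling of multiple mapping. The third control's title carries 2 numbers; its library number was used. The labels do not say whether libraries come from separate animals, so p-values cover only the spread among these 5 libraries, and that spread may be technical.

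Genotypes were compared by edgeR 4.0.16 (R 4.3.3): filterByExpr, TMM, robust quasi-likelihood F test, two-sided, Benjamini-Hochberg over all 12543 genes tested, threshold 0.05, 3 residual degrees of freedom. DESeq2 1.42.0, limma-voom (limma 3.58.1), other scalings and filters, a replicate block, a loess correction for transcript length (span 0.3) and leaving out each library were alternatives. CPM use TMM-scaled totals, and log2 CPM a prior count of 2. Coordinates, lengths and shared stretches came from GENCODE M21 (GRCm38). The fits were tested on simulated data.

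The members, lists and alternatives were chosen with earlier results of these data known. Genes were named by fixed rules: largest fold changes among genes of at least 10 CPM, non-overlapping groups, highest levels, widest ranges, farthest from the family median, paralogs, genes with roles beside translation, and at most 4 per other list by smallest p. Some genes that met the rules are not reported here. Examples beyond these rules (Rps16, Rpl3, Rpl7) were named after their values were seen.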

Additional observations from a re-analysis of the deposited data

How the results depend on the processing

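The call counts rest on the tool: edgeR called 0 of 12543 genes under its other scalings, 0 of 15981 without a filter and 0 of 11683 with a filter of at least 1 CPM in 3 libraries, limma-voom called 0, DESeq2 232 (0 of them ribosomal protein genes) and edgeR with a replicate block 4. Replicate numbers were not used to pair the libraries in the main test. Over genes, deviations from the group mean correlated at 0.14 for number 1 and at -0.65 for number 2, and there are only 2 pairs. Deviations of the 2 libraries labelled knockout mirror each other, so these values cannot decide whether libraries of the same number belong together. The family's median log2 fold change, -0.11, was -0.09 with the replicate block and -0.84 to 0.33 with each library left out, and 0.01 after the length correction. The share of counts differed by -0.283 to 0.242 percentage points, and the ratio of summed Rpl to Rps members by -0.0630 to 0.171, with each library left out. The median of biogenesis factors, an alternative set chosen after seeing the data, was -0.13 when libraries were scaled to the summed ribosomal protein genes and -0.47 to -0.25 with each library left out. Of 288 alternative values of 17 named members, 273 kept their direction. The 15 that did not include Rpl36 in limma-voom (-0.0072) and Rpl27 after the length correction (0.026). The others came from leaving out 1 library, with ranges of -1.94 to 0.33 for Rpl10a, -2.98 to 0.35 for Rpl12, -1.29 to 0.21 for Rpl39, -0.27 to 0.41 for Rpl19, -0.70 to 0.66 for Rpl29, -0.22 to 0.50 for Rpl32, -0.97 to 0.79 for Rpl36, -0.41 to 0.45 for Rpl7a, -0.51 to 0.50 for Rps14 and -0.82 to 0.69 for Rps19. The cause of these shifts was not tested. Members under 10 CPM rest on few reads, which limits their precision.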
